A study of Mus musculus with 6 samples.

Results

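Genes whose products limit mitogen-activated protein kinase (MAPK) signalling or the life of cytokine mRNA were examined for histone marks in mouse bone marrow-derived macrophages (BMDMs). They were the dual-specificity phosphatase genes Dusp1, Dusp2, Dusp4, Dusp5, Dusp6 and Dusp16, and the zinc finger genes Zfp36, Zfp36l1 and Zfp36l2. The 9 genes were chosen by name for the role of their products, with earlier results of these data known. Every peak that overlapped a gene record or the 50 kb on either side of it was taken as a peak of that gene, which gave 213 peaks of the 142059 in 4 peak lists. The BMDMs came from C57BL/6 mice and had been cultured for 6 days with L929-conditioned medium. They were treated for 1 h with LPS, a component of the outer membrane of Gram-negative bacteria, or with PBS. CUT&RUN, in which an antibody directs a nuclease that cuts out the chromatin it binds, was performed for H3K27ac, H3K4me1 and control IgG, with 1 library for each treatment and antibody. The 4 libraries of the histone marks have the peak lists, and IgG was not used here. With 1 library per group there is no replicate error and no test. Each difference is one between single libraries, treatment and library cannot be told apart, and intervals cover counting error only.

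LPS activates macrophages through Toll-like receptor 4, which starts the MAPK cascades of ERK, JNK and p38. The Dusp phosphatases studied here remove phosphate from both threonine and tyrosine in the activation loop of these kinases and so switch them off. Proteins of the Zfp36 family bind AU-rich elements in cytokine mRNAs, such as that of Tnf, and bring in the enzymes that shorten the poly(A) tail. Several genes of both families are known as early response genes whose products feed back on the response that induced them. H3K4me1 marks enhancers, whether active or poised, whereas H3K27ac marks active enhancers and promoters.

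After LPS, 5 of the 9 genes had an H3K27ac peak in their window, namely Dusp1, Dusp4, Zfp36, Zfp36l1 and Zfp36l2. They were all 3 Zfp36 genes and 2 of the 6 Dusp genes. None of the 9 had an H3K27ac peak after PBS. Across 21829 protein-coding genes, 27.7% had an LPS H3K27ac peak in a window made the same way and 0.586% had a PBS H3K27ac peak, so the absence of PBS peaks from 9 genes was also what most genes showed. The LPS list held 4200 H3K27ac peaks, of which 8 fell in the 9 windows, and the PBS list held 52, of which 0 did. H3K4me1 peaks were present at all 9 genes under both treatments, with 117 of 73049 after LPS and 88 of 64758 after PBS. Among all genes the shares with an H3K4me1 peak were 74.0% after LPS and 70.6% after PBS.

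The strongest H3K27ac peak of Dusp1, Dusp4, Zfp36l1 and Zfp36l2 is shown as the 200 bases around its summit, from the forward strand of GRCm38, because these are the places at which acetylation was called after LPS and not after PBS. Each sequence, and the same length around the other H3K27ac peaks of the genes, was searched on both strands for the AP-1 motif TGANTCA, the cAMP response element TGACGTCA, the PU.1 core GAGGAA, and the NF-kB and SRF consensus motifs. Capitals mark a match.
Dusp1, 27.6 kb upstream, chr17:26535972-26536171: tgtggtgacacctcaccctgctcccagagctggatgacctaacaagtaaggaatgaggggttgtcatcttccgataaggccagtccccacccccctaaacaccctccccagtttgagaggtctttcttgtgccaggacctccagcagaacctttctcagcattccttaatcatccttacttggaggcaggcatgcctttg
Dusp4, 8.9 kb downstream of the TSS, chr8:34816134-34816333: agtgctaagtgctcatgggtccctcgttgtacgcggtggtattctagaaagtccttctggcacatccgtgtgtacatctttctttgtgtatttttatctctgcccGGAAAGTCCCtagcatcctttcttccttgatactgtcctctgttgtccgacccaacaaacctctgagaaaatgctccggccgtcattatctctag
Zfp36l1, 19.5 kb upstream, chr12:80132407-80132606: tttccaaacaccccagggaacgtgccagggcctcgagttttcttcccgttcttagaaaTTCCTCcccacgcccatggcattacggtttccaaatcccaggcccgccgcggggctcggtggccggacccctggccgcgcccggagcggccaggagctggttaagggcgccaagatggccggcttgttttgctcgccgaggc
Zfp36l2, 5.3 kb downstream of the TSS, chr17:84182548-84182747: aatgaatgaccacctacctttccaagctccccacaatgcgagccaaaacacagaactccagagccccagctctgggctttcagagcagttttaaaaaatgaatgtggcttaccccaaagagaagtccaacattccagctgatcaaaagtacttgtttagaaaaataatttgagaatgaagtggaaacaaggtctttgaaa

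The Dusp4 sequence held an NF-kB match, GGAAAGTCCC, on the minus strand at chr8:34816239-34816248, close to the summit at the middle of the sequence. The Zfp36l1 sequence held the PU.1 core on the minus strand, written TTCCTC, and was the richest in G and C at 65.0%, against 41.5% in the Zfp36l2 sequence. PU.1 is the lineage factor of macrophages, and NF-kB is the main transcription factor of the LPS response. Over all 8 H3K27ac peaks of the genes, 3 held the PU.1 core, as did 21.3% of the 4200 peaks of the list in windows of the same length. The other PU.1 matches were in the Dusp1 peak downstream of the gene and in the Zfp36 peak in Med29. NF-kB was matched in 1 of 8, against 5.26% of the list. AP-1 was matched in 0 of 8 and 6.4% of the list, the cAMP response element in 0 of 8 and 0.262%, and SRF in 0 of 8 and 1.21%. The remaining 4 sequences held none of these motifs, as was the case for 69.2% of the list. These matches describe letters in the sequence, and binding of a factor was not measured.

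**Figure D1:**
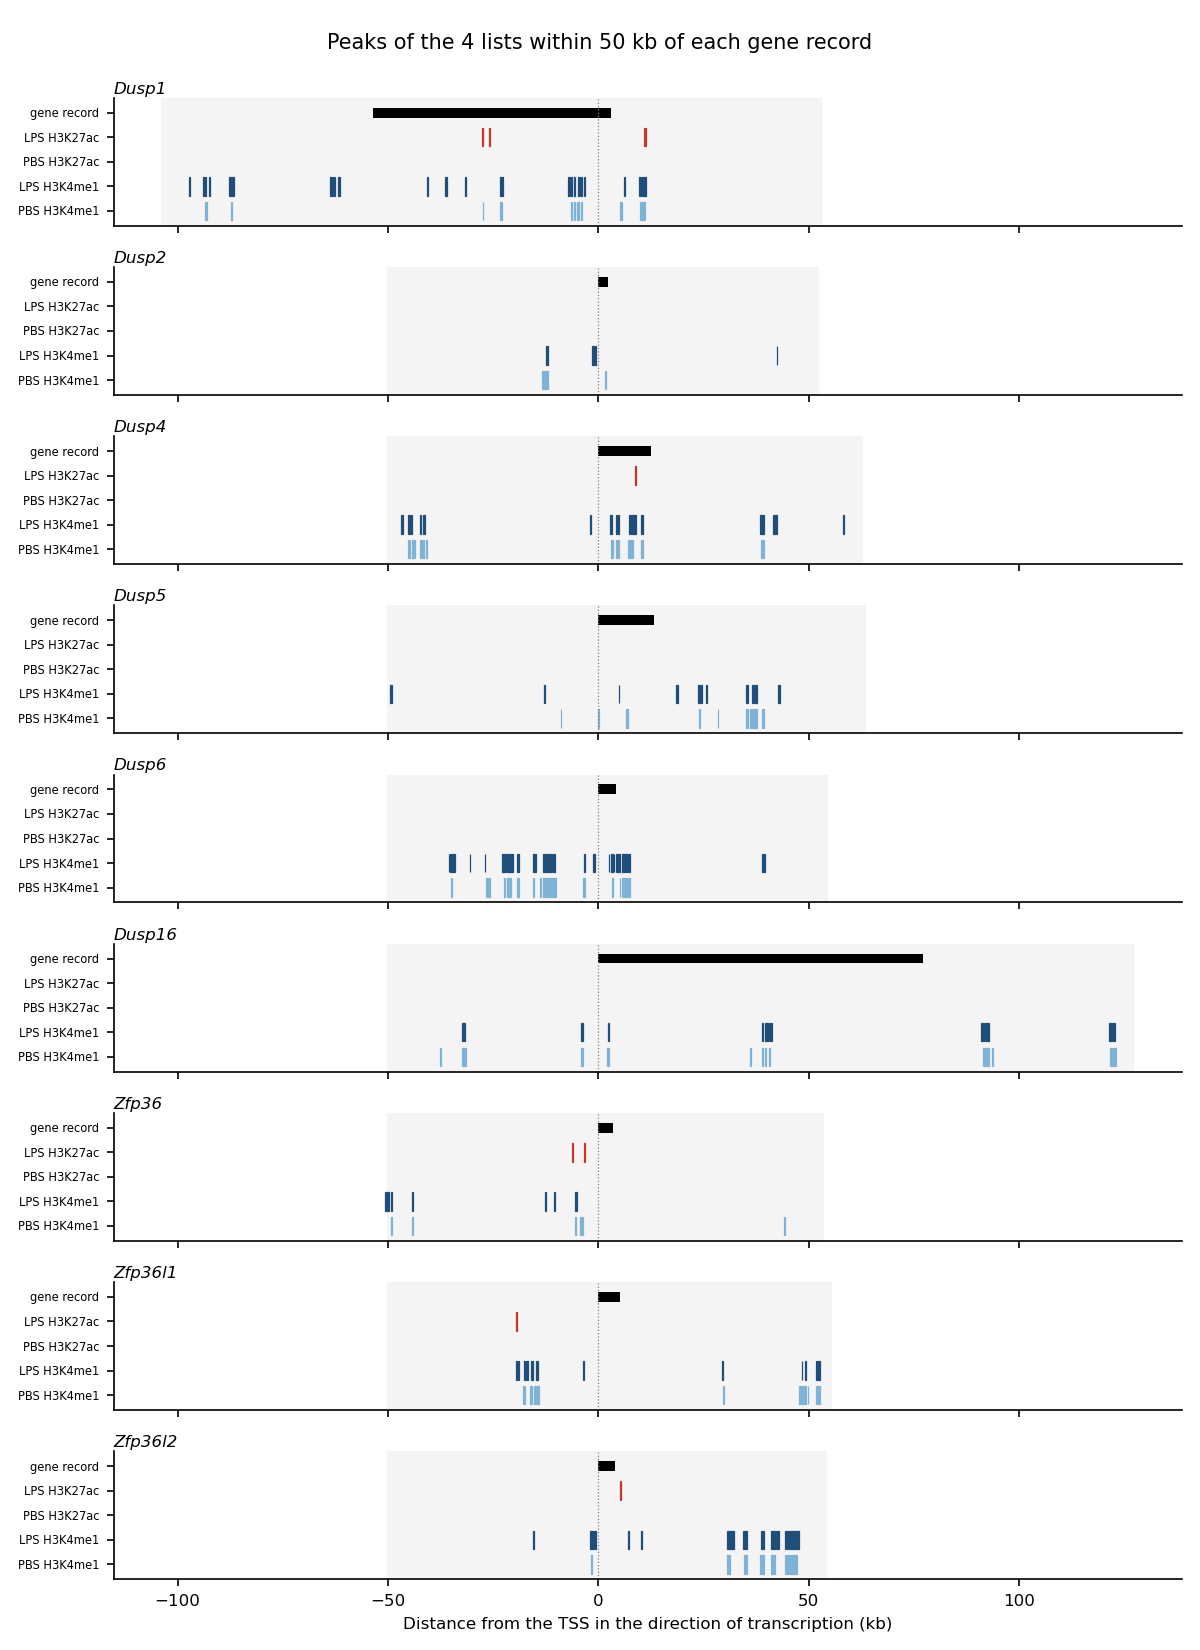
Map of all 213 peaks at the 9 genes. The x axis is the distance from the transcription start site (TSS) in kb in the direction of transcription, the grey field is the window searched, the black bar the gene record, and each coloured bar a peak. The H3K27ac peaks after LPS sit at 5 genes and away from the dotted line of the TSS, the row of H3K27ac after PBS is empty, and the H3K4me1 rows of both treatments hold groups of peaks at like distances.

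The 8 H3K27ac peaks all lay away from protein-coding TSSs, and distances to the TSSs of non-coding genes were not measured. Their summits lay between 3237 and 27553 bp from the TSS of the gene, and H3K27ac was called at the TSS itself (1 kb on either side) for 0 of the 9 genes, against 5.19% of all genes. Median width was 202.5 bp, beside 150.5 bp in the whole list. For 6 of the 8, the closest protein-coding TSS was that of the gene itself. The number of fragments at each summit, recovered from the deposited values, was between 9 and 16, so that each peak rests on few molecules. The −log10 q given by the peak caller had a median of 4.9 in these 8 peaks and of 3.75 in the list, and 7 of the 8 were at or above the list's median. A −log10 q of at least 5 was reached by 4 of them.

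Dusp1 encodes a nuclear phosphatase that acts mainly on p38 and JNK and is a feedback regulator of LPS signalling in macrophages. It had the most H3K27ac peaks, with 3 after LPS and 0 after PBS, and was with Zfp36 1 of the 2 genes with at least 2 such peaks, which 10.6% of all genes had. The peak at chr17:26535974-26536186 was 213 bp wide, with its summit 27553 bp upstream of the TSS, 6.84-fold enrichment and a −log10 q of 7.25, which ranked 344 of 4200. It rested on 16 summit fragments, the most of the 8 peaks, and its closest coding TSS was that of Ergic1 at 25417 bp. Next to it, chr17:26534252-26534597 was 346 bp wide and 25766 bp upstream, with 5.16-fold enrichment and a −log10 q of 3.24, the lowest of the 8. The third, chr17:26497090-26497559, lay on the other side of the gene, 11271 bp downstream of the TSS in an intron of the non-coding gene AC122252.2. It was the widest of the 8 at 470 bp, with 7.17-fold enrichment and a −log10 q of 6.06, and it overlapped an H3K4me1 peak of both lists. The H3K4me1 peaks at that place were 891 bp wide after LPS and 1193 bp after PBS and had the highest −log10 q of the Dusp1 window in their lists, 11.46 and 9.71. Of the upstream pair, the 27.6 kb peak overlapped a PBS H3K4me1 peak of 196 bp and no LPS one, and the 25.8 kb peak overlapped none.

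The Dusp1 record in GENCODE is 56539 bp long because it includes a transcript that starts far upstream, so its window spanned 156.5 kb and the upstream pair counted as intronic. The RefSeq record ends within 47 bp of the TSS used here. Around that shorter record all 3 H3K27ac peaks were still counted. H3K4me1 peaks in the full window numbered 21 after LPS and 10 after PBS, a ratio of 2.1 and the highest of the 9 genes, and around the RefSeq record 13 and 8. A group of H3K4me1 peaks 3.2 to 7.1 kb upstream held 6 peaks after LPS, and 4 peaks 3.8 to 6.5 kb upstream were called after PBS. Of the 21 LPS peaks, 12 had no overlapping PBS peak. Among these 12 was a group of 3 between 61.4 and 63.8 kb upstream, inside Ergic1, in which the highest −log10 q was 10.77. Only 10 of the 21 LPS peaks, and 7 of the 10 PBS peaks, had the Dusp1 TSS as their closest coding TSS.

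Dusp2, Dusp4 and Dusp5 encode nuclear phosphatases as well. Dusp5 acts on ERK alone, and Dusp4 on ERK and JNK. Dusp4 had 1 H3K27ac peak after LPS, at chr8:34816100-34816257, in an intron of the gene 8937 bp downstream of the TSS. It was 158 bp wide with 6.05-fold enrichment, a −log10 q of 4.35 and 9 summit fragments. It lay within an LPS H3K4me1 peak of 1272 bp, whereas the closest PBS H3K4me1 peak, chr8:34814460-34815636, ended 464 bp away. That PBS peak had a −log10 q of 17.28, the highest of all PBS H3K4me1 peaks in the 9 windows, and ranked 1457 of 64758. The intragenic H3K4me1 of Dusp4 was thus present under both treatments, with 6 LPS and 4 PBS peaks touching the gene record. A further group of 5 peaks in each list lay upstream, from 41.2 to 46.8 kb after LPS and from 40.6 to 45.2 kb after PBS. In all, the Dusp4 window held 16 H3K4me1 peaks after LPS and 10 after PBS, a ratio of 1.6, but at a −log10 q of at least 5 it held 8 and 10.

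Dusp2 and Dusp5 had no H3K27ac peak in their windows. Dusp2 had the fewest H3K4me1 peaks, 3 after LPS and 3 after PBS. It was the member with the lowest density, 2.93 peaks per 100 kb in either list, beside medians over all genes of 3.24 after LPS and 2.42 after PBS. Its LPS peak at chr2:127334646-127335555 was 910 bp wide, overlapped the 1 kb upstream of the TSS and had its summit 1370 bp upstream, and no PBS peak overlapped it. Dusp5 had 11 H3K4me1 peaks after LPS and 10 after PBS, but only 4 in each list overlapped a peak of the other. The 2 lists coincided 35.1 kb downstream of the TSS and beyond, where 3 LPS peaks reached to 37.6 kb and 5 PBS peaks to 39.3 kb. The strongest of these had a −log10 q of 11.46 after LPS and 14.87 after PBS. Their closest coding TSS was that of Nutf2-ps1, at 22449 and 23102 bp. Dusp5 had the closest coding TSS for 7 of its 11 LPS peaks and 5 of its 10 PBS peaks. At the TSS itself a PBS H3K4me1 peak of 294 bp was called at chr19:53528998-53529291, with no LPS counterpart.

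Dusp6, a cytoplasmic phosphatase specific for ERK, had no H3K27ac peak in either list, where 27.7% of all genes had an LPS one. It had the densest H3K4me1 of the 9 genes. It had 21 peaks after LPS and 17 after PBS, or 20.14 and 16.31 per 100 kb, and the lists covered 11.56% and 8.27% of its window. Of all protein-coding genes, 97.4% had a lower density after LPS and 96.0% after PBS. The window holds no other coding gene, and all of these peaks had Dusp6 as the closest coding TSS. Groups of peaks recurred at 3 places in both lists. The first lay 18.9 to 22.8 kb upstream and held 3 peaks in each list. The second, with 4 peaks in each list, reached from 10.2 to 15.4 kb upstream after LPS and from 10.1 to 15.6 kb after PBS, and held the widest PBS peak of the 9 windows at 1575 bp. The third, with 6 peaks in each list, began 2.5 kb downstream of the TSS after LPS and 3.2 kb after PBS and reached past the end of the gene. The peak with the highest −log10 q of all 117 LPS H3K4me1 peaks, 16.47, was at chr10:99227984-99229282, 34818 bp upstream of Dusp6. It overlapped a PBS peak of 386 bp. An LPS peak of 443 bp with its summit 1021 bp upstream of the TSS had no PBS counterpart.

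Dusp16, which acts on JNK and p38, also had no H3K27ac peak, in a window of 177.2 kb. It had 13 H3K4me1 peaks after LPS and 12 after PBS, but 7 and 10 once a −log10 q under 5 was left out. Of all these peaks, 11 of 13 LPS peaks (84.62%) and 9 of 12 PBS peaks (75.0%) overlapped the other list. Dusp16 had the closest coding TSS for 7 of the 13 and 6 of the 12, and the rest lay nearer to that of Borcs5 or Crebl2. A group within the gene, about 39 to 41 kb from the TSS, held 5 peaks after LPS and 3 after PBS. The strongest LPS peak was 3820 bp upstream of the TSS, with a −log10 q of 15.08. The RefSeq record of Dusp16 starts 14438 bp farther upstream, which would place this peak inside the gene.

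Zfp36 encodes tristetraprolin, which destabilises Tnf mRNA. It had 2 H3K27ac peaks after LPS, both upstream. The first, at chr7:28383383-28383704, was 322 bp wide with its summit 3237 bp upstream in an intron of the non-coding gene Gm44710, 5.36-fold enrichment, a −log10 q of 4.12 and 12 summit fragments. The second, at chr7:28386350-28386541, was 192 bp wide, 6240 bp upstream, with 5.99-fold enrichment, a −log10 q of 5.46 and 14 summit fragments. Its summit was in a UTR of Med29, whose TSS at 6215 bp was marginally closer than that of Zfp36. Neither overlapped an H3K4me1 peak, and a PBS H3K4me1 peak lay 260 bp from the first. The RefSeq TSS of Zfp36 is 1025 bp from the TSS used here, inside the gene, so both peaks would be that much farther from it. Zfp36 had few H3K4me1 peaks, 6 after LPS and 5 after PBS, and its window held 6 other coding genes. Only 1 of the 6 LPS peaks and 2 of the 5 PBS peaks had Zfp36 as the closest coding TSS, so most of the H3K4me1 in this window lay nearer to other genes.

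Zfp36l1 and Zfp36l2 are the paralogues of Zfp36 and bind the same class of mRNA element. The H3K27ac peak of Zfp36l1, at chr12:80132401-80132558, was the strongest of the 8. It had 7.96-fold enrichment and a −log10 q of 8.46, which ranked 212 of 4200, and 15 summit fragments over a width of 158 bp. Its summit lay 19494 bp upstream, in an exon of the non-coding gene 2310015A10Rik, and the peak overlapped an LPS H3K4me1 peak and no PBS one. It stood at the far end of a group of 6 LPS H3K4me1 peaks from 14.2 to 19.7 kb upstream, where the PBS list had 5 peaks from 14.1 to 17.8 kb. The H3K4me1 count of Zfp36l1 was 12 after each treatment, with 6 LPS peaks and 7 PBS peaks overlapping the other list. A second place was marked in both lists about 49.2 kb downstream of the TSS, with a −log10 q of 15.65 after LPS and 14.87 after PBS. No other coding gene lies in this window.

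The H3K27ac peak of Zfp36l2, at chr17:84182613-84182746, was the narrowest of the 8 at 134 bp. It lay 5299 bp downstream of the TSS, beyond the end of the gene, with 5.68-fold enrichment, a −log10 q of 3.92 and 9 summit fragments, and overlapped no H3K4me1 peak. H3K4me1 peaks numbered 14 after LPS and 9 after PBS, a ratio of 1.56, and all 9 PBS peaks overlapped an LPS peak. Most lay far downstream of the gene. A group of 6 LPS peaks there spanned 9050 bp, from 38.5 to 47.6 kb, and included the widest LPS peak of the 9 windows at 2113 bp. At the start of the gene, an LPS peak of 480 bp with its summit 713 bp upstream had no PBS counterpart. The strongest LPS peak of the window lay next to it, 1529 bp upstream, with a −log10 q of 14.97.

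**Figure D2:**
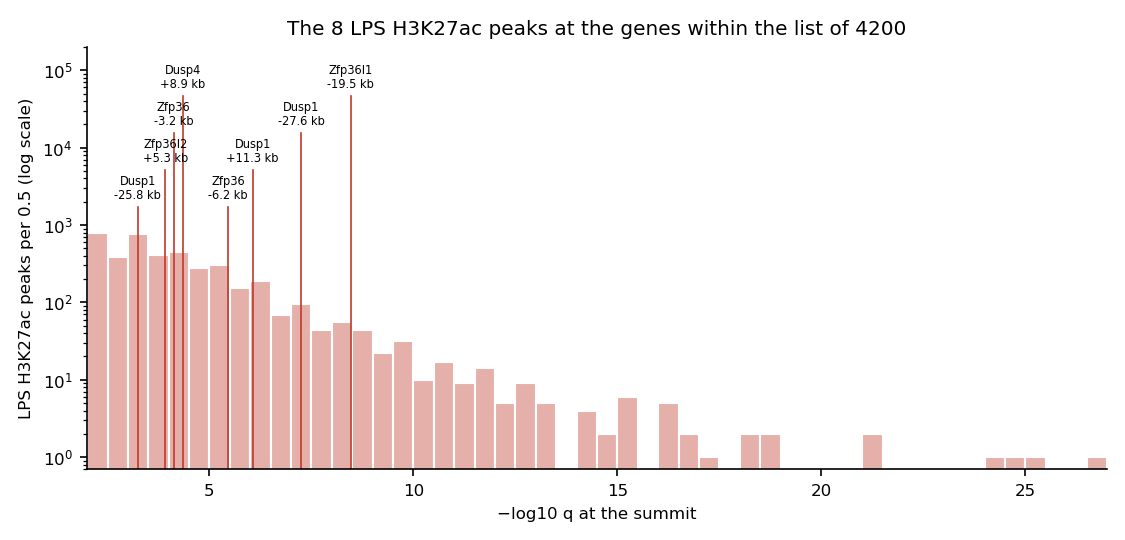
The 8 LPS H3K27ac peaks at the genes within the whole LPS list. The x axis is the −log10 q at the summit, bars count the 4200 peaks of the list in steps of 0.5 on a log scale, and each red line is a peak of a gene, labelled with the distance of its summit from the TSS in kb (plus for downstream). The lines run from 3.24 for the weakest Dusp1 peak to 8.46 for Zfp36l1, below the strongest peaks of the list.

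The 2 H3K27ac lists differed greatly in length, which bears on each statement that a peak was present after LPS and not after PBS. Treatment fragments estimated from the deposited values were about 5660000 after LPS and 7210000 after PBS for H3K27ac, and 7000000 and 6870000 for H3K4me1. These totals take the smallest peak width of a list as fragment length, and its lowest common background level, from only 52 peaks for PBS H3K27ac. Whether the short PBS H3K27ac list came from fewer fragments was therefore not settled. The weakest PBS peak had a −log10 p of 6.91, a value that all 8 LPS peaks at the genes, and 2947 of the 4200 in the list, reached or passed. When the LPS list was cut to its strongest 52 peaks, the size of the PBS list, 0 of the 9 genes kept a peak. The 8 peaks were thus above the limit of the PBS list but not among the strongest of the LPS list. Peaks absent from either H3K27ac list were not detected at the depth and limit of that list, and acetylation below the limit was not measured. This holds for the genes and TSSs without an LPS peak too. The LPS list had a median of 9 summit fragments and a peak at the TSS of 5.19% of all genes. The PBS list also held no peak at any of 10 macrophage marker genes. That says little about the library, since 0.261% of all genes had such a peak and the LPS list reached only 1 of the 10. A weak PBS H3K27ac library and a lack of acetylation after PBS cannot be told apart here.

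H3K4me1 around the genes was denser than around most genes in both lists. The median over the 9 windows was 11.4 peaks per 100 kb after LPS, from 2.93 for Dusp2 to 20.14 for Dusp6, beside a median of 3.24 over all genes. After PBS it was 8.65, from 2.93 to 16.31, beside 2.42. Dusp6 was highest and Dusp2 lowest in both lists, and with no replicates it is not known which neighbours in the order differ. For LPS H3K27ac the median was 0.89 per 100 kb, beside 0 over all genes, with Zfp36 highest at 1.93. Dusp1, Dusp4, Zfp36l1 and Zfp36l2, which had LPS H3K27ac, were denser in LPS H3K4me1 than Dusp2, Dusp5 and Dusp16, which had none. Dusp6 and Zfp36 ran the other way, since Dusp6 had the most H3K4me1 and no H3K27ac, and Zfp36 had the second lowest H3K4me1 density and 2 H3K27ac peaks. In PBS H3K4me1 the order was not kept at other genes either. Dusp1 had 6.39 peaks per 100 kb, below Dusp16 at 6.77 and Dusp5 at 8.82, and Zfp36l2 at 8.65 was below Dusp5. Dusp4 at 8.88 and Zfp36l1 at 11.4 stayed above Dusp2, Dusp5 and Dusp16. Among the 15031 genes with an H3K4me1 peak of both lists in the window, which is the case for all 9, 36.7% had an LPS H3K27ac peak.

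**Figure D3:**
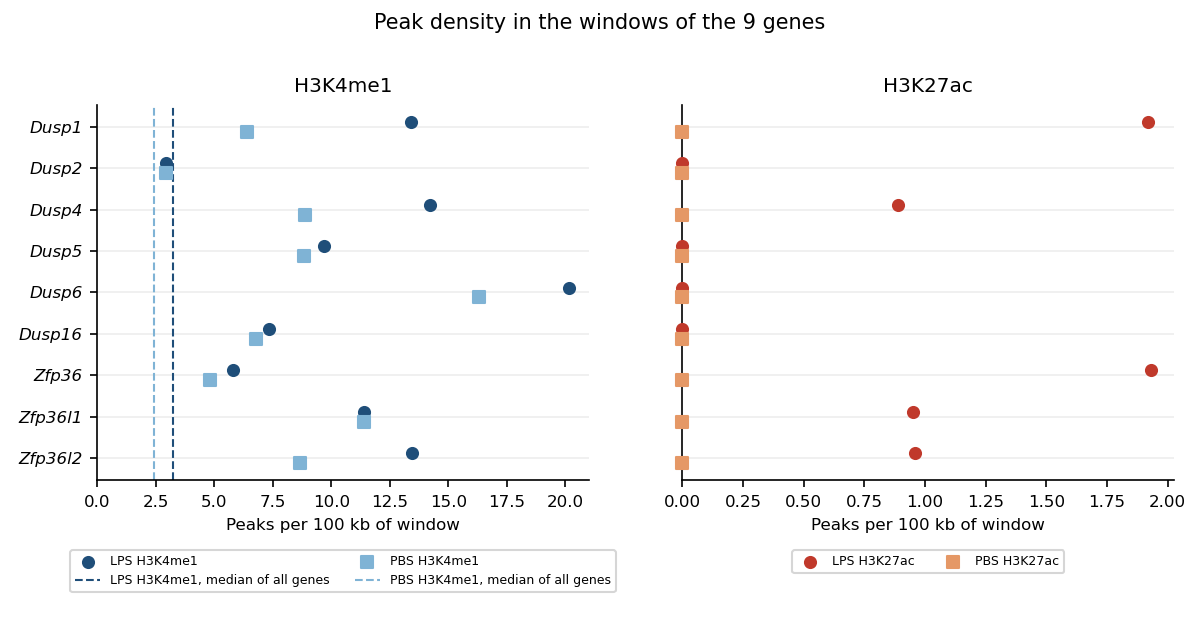
Peaks per 100 kb of window at each gene, for H3K4me1 on the left and H3K27ac on the right, with circles for LPS and squares for PBS, 1 library each. Dashed lines are the medians over all protein-coding genes, 3.24 after LPS and 2.42 after PBS for H3K4me1, and are 0 for H3K27ac. Dusp6 is the densest for H3K4me1 at 20.14 after LPS, and only Dusp1, Dusp4 and the 3 Zfp36 genes are above 0 for H3K27ac.

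H3K4me1 peaks were more numerous after LPS than after PBS at 7 of the 9 genes, equal in number at Dusp2 and Zfp36l1 and fewer at 0. Among all genes 47.3% (10322) had more and 17.2% (3763) had fewer. That base includes genes with no H3K4me1 peak in the window, which count as equal, whereas all 9 genes had peaks in both lists. More peaks after LPS was thus also the usual direction among genes whose counts differed. The windows together had a ratio of 1.33, or 1.23 without Dusp1, beside 1.13 for the whole lists, and the covered length, 54.1 kb after LPS and 40.1 kb after PBS, had a ratio of 1.35 beside 1.25. With the LPS list cut to the length of the PBS list, 105 and 88 peaks remained. Then 5 genes had more after LPS, Dusp1, Dusp4, Dusp6, Dusp16 and Zfp36l2. The share was 35.8% over all genes, again with genes that had no peak in the base. Dusp5 and Zfp36l1 then had fewer. Other settings turned the direction at single genes. At a −log10 q of at least 5, Dusp4 had 8 LPS and 10 PBS peaks and Dusp16 had 7 and 10. After peaks within 1 kb were merged, Dusp16 had 6 and 8. Around the RefSeq record Zfp36 had 4 and 5. With 10 kb on either side Zfp36 had 1 and 2 and Dusp5 had 2 and 3, and with 100 kb Zfp36l1 had 17 and 20. Dusp1, Dusp6 and Zfp36l2 had more after LPS in each of these settings.

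The H3K4me1 lists overlapped in part, to an extent that varied with the gene and with the overlap asked for. Of the LPS peaks 56.41% (66 of 117, 95% Wilson interval 47.36% to 65.05%) overlapped a PBS peak, beside 61.16% of the whole list. Of the PBS peaks 70.45% (62 of 88, 60.23% to 78.97%) overlapped an LPS peak, beside 73.12%. Both intervals include the share of the whole list. When at least 50% of both peaks had to be shared, these values were 33.33% and 43.18%. Peaks with a counterpart were wider than those without, with medians of 446.5 and 253 bp after LPS and of 447.5 and 224.5 bp after PBS. This was also so in the whole lists, with 500 and 238 bp after LPS and 415 and 213 bp after PBS. The −log10 q of peaks with a counterpart was also higher, 6.51 against 4.39 after LPS and 7.12 against 4.03 after PBS. In the whole lists it was 7.16 against 4.44 and 6.33 against 4.24. Dusp16 had the highest share of LPS peaks with a counterpart and Dusp2 the lowest, with 1 of 3.

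**Figure D4:**
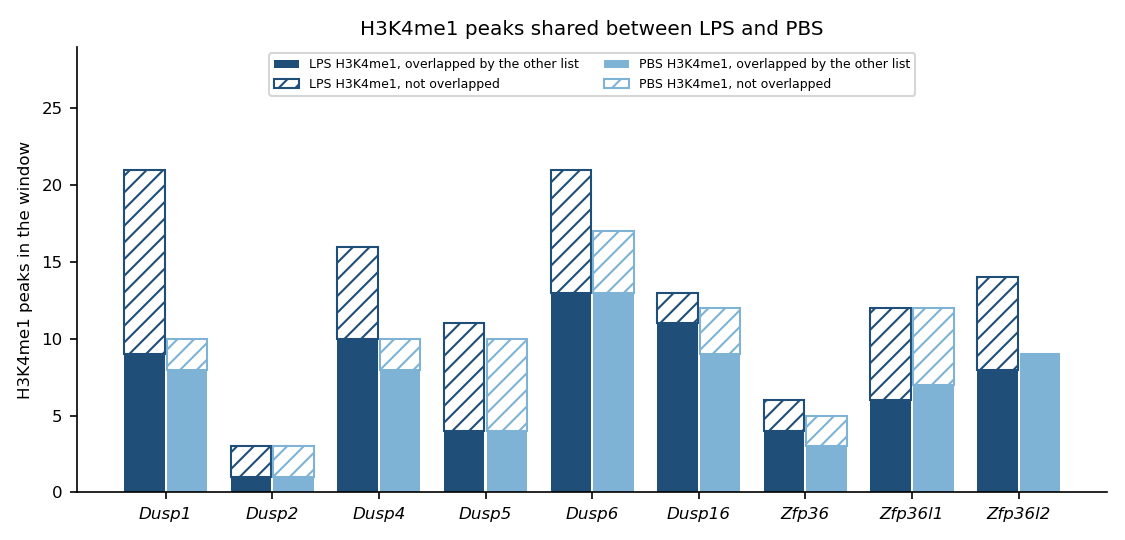
Number of H3K4me1 peaks in the window of each gene, LPS on the left and PBS on the right of each pair, 1 library each. The filled part of a bar counts peaks that overlap a peak of the other treatment by at least 1 bp, and the hatched part those that do not. The hatched part is tallest for LPS at Dusp1, with 12 of 21 peaks, and missing for PBS at Zfp36l2, with 0 of 9. In the whole lists 28373 of 73049 LPS and 17409 of 64758 PBS peaks had no counterpart.

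The H3K4me1 peaks were mostly intronic or intergenic. The summit was in an intron for 74 of 117 LPS peaks and 57 of 88 PBS peaks, including introns of neighbouring genes, and intergenic for 34 and 26. They lay on both sides of the TSS, 59 upstream and 58 downstream after LPS and 41 and 47 after PBS. The member was the gene with the closest coding TSS for 90 LPS peaks and 71 PBS peaks. Few were at a start site. Within 1 kb of the TSS an LPS peak was called at Dusp2, Dusp6 and Zfp36l2, 3 of the 9 genes beside 24.1% of all genes, and a PBS peak at Dusp5, 1 of 9 beside 16.0%. This difference was not kept under other definitions, since with the TSS of any annotated transcript the counts were 3 after LPS and 3 after PBS, and within 2500 bp they were 5 and 4. None of the 4 peaks called within 1 kb had a counterpart in the other list. In the whole lists 61.16% of LPS and 73.12% of PBS H3K4me1 peaks had one. Peak widths ran from 144 to 2113 bp with a median of 376 bp after LPS, beside 353 bp in the list, and from 144 to 1575 bp with a median of 389 bp after PBS, beside 335 bp. Wide peaks of at least 1 kb were 7 of the 117 after LPS (5.98%, against 12.0% of the list) and 8 of the 88 after PBS (9.09%, against 9.58%).

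The H3K27ac peaks were only partly within H3K4me1. Of the 8, 3 overlapped an LPS H3K4me1 peak (37.5%, 95% Wilson interval 13.68% to 69.43%), beside 33.6% of the list. A PBS H3K4me1 peak overlapped 2 of them (25.0%, 7.15% to 59.07%), beside 29.9%. Either list overlapped 4 of 8, beside 39.33%. The 4 with H3K4me1 were those of Dusp4, Zfp36l1 and 2 of the Dusp1 peaks, and the 4 without were the remaining Dusp1 peak, both Zfp36 peaks and the Zfp36l2 peak.

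Other genes of related name or pathway were set beside the 9. The other dual-specificity phosphatase genes were listed by name, and whether their products act on MAPKs was not examined. Of 15 other dual-specificity phosphatase genes, 5 had an LPS H3K27ac peak in the window, Dusp3, Dusp9, Dusp11, Dusp12 and Dusp22, which is the same share (33.3%) as among the 6 Dusp genes above. Their H3K4me1 was sparser, with a median of 6.88 peaks per 100 kb after LPS, beside 11.56 in the 6. Dusp7 and Dusp12 had more peaks than Dusp6, with 31 and 32 after LPS and 21 and 23 after PBS, in windows of 107.1 and 112.0 kb. Of 27 genes of the MAPK cascade itself, 17 (63.0%) had an LPS H3K27ac peak, and of 30 genes of mRNA decay, 14 (46.7%) did, beside 55.6% of the 9. Median H3K4me1 densities were 7.95 after LPS and 7.9 after PBS in the MAPK cascade, and 6.67 and 4.6 in mRNA decay. These were also above the medians over all genes, 3.24 and 2.42, so dense H3K4me1 was not particular to the 9 genes. None of the genes in these 3 lists had a PBS H3K27ac peak. H3K4me1 peaks were more numerous after LPS at 13 of the 15 phosphatase genes and 23 of the 30 mRNA decay genes, whereas in the MAPK cascade 15 had more and 11 had fewer.

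The genes whose peak density in all 4 lists was most like that of Dusp1, the member with the most H3K27ac peaks, were Mrpl24, Ipo4 and Cnpy2. Likeness was the Euclidean distance between log2(peaks per 100 kb + 1) in the 4 lists, and was 0.116, 0.116 and 0.121. Each had 2 LPS H3K27ac peaks, 0 after PBS and 7 PBS H3K4me1 peaks. These are small counts in 4 libraries, and many genes have nearly the same values.

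The label of the cells was checked on marker genes with 10 kb on either side. All 10 macrophage markers, among them Adgre1, Csf1r and Spi1, had an H3K4me1 peak after LPS and 9 did after PBS, the exception being Cd68. Of the markers of other cells, H3K4me1 peaks after LPS were at 3 of 4 B cell genes, 2 of 4 T cell genes, 2 of 4 neutrophil genes and 2 of 6 genes of other tissues, and the part of such cells in the peaks above was not tested. Among all protein-coding genes, 57.5% had an H3K4me1 peak in such a window after LPS and 51.9% after PBS. For LPS H3K27ac, a peak was present at 1 of 10 macrophage markers (Spi1) and at 1 of 4 T cell markers (Cd3d), beside 14.1% of all genes, so H3K27ac did not set the macrophage markers apart. For PBS H3K27ac, 0 of 10 macrophage markers had a peak, beside 0.261% of all genes.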

How the data were processed

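The deposited lists were made by the authors from CUT&RUN reads. Per the labels and the methods of the study, reads were aligned to GRCm38 with Bowtie2 2.4.4, blacklisted regions were removed, and peaks were called per library, without pooling, with MACS2 2.2.7.1. The deposited fold enrichment is a ratio of summit coverage to local background. The deposited −log10 p and −log10 q are the peak caller's values at the summit. The deposited score repeats the q-value as a whole number and was not used.

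Windows were GENCODE M21 gene records (GRCm38; the authors' release was different) plus 50 kb. The TSS was that of the coding transcript with the longest coding sequence, and a peak was at the TSS when it overlapped the 1 kb on either side. Distances run from summit to TSS. Peaks overlapped when they shared at least 1 bp. Shares carry Wilson 95% intervals. Groups of peaks have at least 3 peaks with gaps of up to 2 kb. Sequences came from RefSeq GRCm38.p6. Summit fragments were computed from fold enrichment and −log10 p with 1 scaling factor per library and matched the deposited −log10 p within 0.002. Total fragments, through which alone the depth of each library is known, were estimated from that factor and the background level. They also took the smallest peak width as fragment length and an assumed genome size, and the match does not check them. Python 3.11.15 and pandas 2.3.3 were used, and the counting was tested on simulated data.

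Named were the 9 genes, every H3K27ac peak and H3K4me1 peaks within 1 kb of a TSS. The strongest H3K4me1 peak of a window was given for only some windows and lists. The 200 bases around each gene's strongest H3K27ac peak were printed, and a sequence for Zfp36 is not reported here. The members and lists were chosen with earlier results of these data known. Groups of H3K4me1 peaks, and other H3K4me1 peaks singled out, were chosen after their values were seen. With 1 library per group no test was run.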

Additional observations from a re-analysis of the deposited data

How the results depend on the processing

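The sum of 8 LPS H3K27ac peaks became 16 with 100 kb on either side, where Dusp2 and Dusp5 gained 1 each, 4 at a −log10 q of at least 5 and 0 with lists of equal size. The number of genes with such a peak went from 5 to 3 at a −log10 q of at least 5, which left Dusp1, Zfp36 and Zfp36l1, and to 0 with lists of equal size. PBS H3K27ac peaks numbered 0 in every setting tried. LPS and PBS H3K4me1 peaks, 117 and 88 as reported, were 47 and 32 with 10 kb, 228 and 189 with 100 kb, 65 and 50 when a −log10 q under 5 was left out, and 68 and 54 after peaks within 1 kb were merged, so that LPS had more in each of these settings. H3K4me1 peaks with a counterpart fell to 33.33% of LPS and 43.18% of PBS peaks when at least 50% of both peaks had to be shared, and rose to 70.94% and 84.09% when peaks were extended by 500 bp. LPS H3K27ac peaks within PBS H3K4me1 were 0.0% when at least 50% of both had to be shared, and 4 of 8 when peaks were extended by 500 bp. LPS H3K4me1 was at the TSS of 5 genes within 2500 bp and of 3 with any annotated transcript. PBS H3K4me1 was at the TSS of 4 genes within 2500 bp and of 3 with any annotated transcript. The causes were not tested. The RefSeq records and the common −log10 p limit were tried after seeing the data. No paired analysis was possible because each treatment and antibody has 1 library. The low number of fragments at each H3K27ac summit and the absence of replicates limit every comparison.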
